A study of Mus musculus with 16 samples.

Results

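The posterior part of Fuz KO mouse embryos was compared with that of Gpr161 KO embryos at E10.5 (days of embryonic development) by RNA sequencing. The 4 libraries titled Tail Fuz KO 1 and 2 and Tail Gpr161 KO 1 and 2 were taken by their titles out of 16 libraries in the series. A Tail sample is the embryo caudal to the forelimbs, and a Head sample is the region above the third branchial arches. Each region was sampled from 4 genotypes: Fuz KO, Gpr161 KO, Fuz;Gpr161 DKO, which lack both genes (DKO), and wild type (WT), with 2 libraries per group. The labels give the tissue as embryos, give no treatment, and name neither the alleles nor the strain. Separate embryos are not stated for the 2 libraries in a group. The p-values reflect the spread within groups over all 16 libraries, which outside Gpr161 KO may be technical. The 2 Gpr161 KO libraries differed in sex, as given below, and so cannot be technical repeats of 1 embryo. In whole tissue of this kind, fewer cells of a type and less RNA per cell cannot be told apart.

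Hedgehog ligands bind Patched receptors, which releases Smoothened into the primary cilium and turns Gli proteins into activators, while Gli3 acts mainly as a repressor when no ligand is present. Fuz belongs to the CPLANE proteins, which are needed to build the cilium, and Gpr161 is a receptor of the cilium that raises cyclic AMP and protein kinase A activity and so holds the pathway off. In the embryonic trunk, Sonic hedgehog from the notochord and floor plate favours ventral neural tube and sclerotome fates, and dorsal neural tube and dermomyotome genes are expressed where its signal is low.

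Several direct targets of this pathway were lower in Fuz KO than in Gpr161 KO, and 4 of the 7 that passed the test given below have a promoter entry in the RefSeq table (GRCm38.p6). They are shown because these genes moved together, each from 250 bases before to 50 after the start, with every CG in capitals. Foxf2 is at chr13:31625566-31625865 on the plus strand, Hhip at chr8:80057959-80058258 on the minus strand, Ptch1 at chr13:63565686-63565985 on the minus strand and Nkx2-2 at chr2:147186353-147186652 on the minus strand.
Foxf2: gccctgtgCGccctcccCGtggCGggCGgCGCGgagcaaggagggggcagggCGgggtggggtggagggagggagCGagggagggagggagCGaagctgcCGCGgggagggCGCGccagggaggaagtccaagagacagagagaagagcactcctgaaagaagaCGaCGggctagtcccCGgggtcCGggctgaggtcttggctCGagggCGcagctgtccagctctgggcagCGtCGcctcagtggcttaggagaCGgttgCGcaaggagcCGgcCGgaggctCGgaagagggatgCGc
Hhip: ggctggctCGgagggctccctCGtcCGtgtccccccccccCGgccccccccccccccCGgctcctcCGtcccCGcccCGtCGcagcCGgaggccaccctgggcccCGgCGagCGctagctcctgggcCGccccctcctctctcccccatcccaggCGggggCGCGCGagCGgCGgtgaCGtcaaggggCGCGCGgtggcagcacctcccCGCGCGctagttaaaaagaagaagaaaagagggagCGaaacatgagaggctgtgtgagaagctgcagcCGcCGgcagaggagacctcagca
Ptch1: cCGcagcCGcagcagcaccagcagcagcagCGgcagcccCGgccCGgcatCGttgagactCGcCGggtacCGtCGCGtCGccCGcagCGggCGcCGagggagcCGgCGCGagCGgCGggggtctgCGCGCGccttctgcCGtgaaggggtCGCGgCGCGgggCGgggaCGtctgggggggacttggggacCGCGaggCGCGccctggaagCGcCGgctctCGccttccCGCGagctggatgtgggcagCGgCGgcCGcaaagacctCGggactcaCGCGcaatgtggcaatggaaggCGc
Nkx2-2: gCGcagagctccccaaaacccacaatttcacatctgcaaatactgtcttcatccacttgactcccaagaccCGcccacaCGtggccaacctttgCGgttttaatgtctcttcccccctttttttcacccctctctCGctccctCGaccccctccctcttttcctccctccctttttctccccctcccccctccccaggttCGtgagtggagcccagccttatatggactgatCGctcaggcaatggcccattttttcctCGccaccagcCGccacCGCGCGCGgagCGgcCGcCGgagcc
The Foxf2, Hhip, Ptch1 and Nkx2-2 windows hold 27, 30, 47 and 17 CG. Over the 32851 promoters of the table the median was 7 CG and the 75th percentile 20 CG. The Gli consensus GACCACCCA was searched on both strands and was found in 83 promoters of the table (0.253%). It was found in 0 of the 98 promoters listed for 57 of the 84 genes called below, which says only that these letters are not in these windows.

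Total counts in the 4 libraries ran from 39062489 to 43290460. Levels are given as CPM, the counts of a gene scaled to a common library size with TMM factors, and log2 differences are Fuz KO minus Gpr161 KO. Fuz itself was at 0.877 and 1.26 CPM in Fuz KO and 4.95 and 7.10 CPM in Gpr161 KO, beside 5.17 and 5.35 CPM in WT. Gpr161 was at 24.3 and 42.7 CPM in Fuz KO and 4.98 and 4.08 CPM in Gpr161 KO, beside 46.8 and 51.5 CPM in WT. Each deleted gene was thus lower in its own mutant than in the other mutant and in WT, with transcript left in both, and counts per gene do not show which exons were read. The 14 hindlimb and tail bud markers summed to 480 to 805 CPM over the 8 Tail libraries and to 31.3 to 51.9 CPM over the 8 Head libraries, and none was at 0 in the 4 compared libraries. By Xist and Y-linked counts both Fuz KO and both DKO libraries were male, Gpr161 KO 1 was male, and Gpr161 KO 2 and both WT libraries were female. The first library of Fuz KO stood apart from the second: its hypoxia and glycolysis genes lay at a median log2 of 2.24 above the WT mean, against 0.13 in Fuz KO 2. The values in Gpr161 KO were 1.05 and 0.34, and those in DKO were 1.73 and 0.36. Adm, the vasodilator adrenomedullin and the widest gene of that list, had 37.7 and 0.691 CPM in Fuz KO and 3.86 and 1.55 CPM in Gpr161 KO.

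In Tail Fuz KO against Tail Gpr161 KO, edgeR's quasi-likelihood test called 84 of 21284 genes at a Benjamini-Hochberg adjusted p under 0.05 (0.395%). Of these, 36 were higher in Fuz KO (0.169%) and 48 were lower (0.226%), and 75 differed by a log2 of more than 1 in either direction. The median log2 difference over all genes tested was 0.02. For all 84 genes the 2 Fuz KO libraries did not overlap the 2 Gpr161 KO libraries, while 39.38% of all genes tested also showed no overlap. Among the 84 genes, the mean log CPM of DKO lay nearer to Fuz KO than to Gpr161 KO for 76 (90.48%, and 58.28% of all genes tested). WT lay nearer to Fuz KO for 71 (84.52%, and 45.52% of all genes tested). Both DKO libraries were male, as were both Fuz KO libraries, while both WT libraries were female. DKO 1 also had raised hypoxia and glycolysis genes, as Fuz KO 1 did. The part of sex and of these genes in the nearness of DKO to Fuz KO was not tested. Of the 48 genes lower in Fuz KO, the WT mean lay between the 2 mutants for 46 (95.83%). For 14 of the 36 genes higher in Fuz KO it lay between them (38.89%), against 36.29% of all genes tested. The 84 genes were chosen for a gap between these 2 mutants, which by itself makes a mean between them more likely. All genes tested are therefore not a like baseline for the shares that lay between. The calls depended on single libraries: 48 of the 84 genes were also called without Fuz KO 1, 40 without Fuz KO 2, 31 without Gpr161 KO 1 and 20 without Gpr161 KO 2, and 19 in each of these 4 fits. Each of these fits leaves 1 library in a group, so a call can be lost while the log2 difference changes little. For Shh it was -2.045 to -2.315, against -2.175 with all libraries, while some list medians given below moved more. With sex as a term, 39 of the 84 were called. Only the Gpr161 KO groups held both sexes, so this term rests on the difference between their libraries 1 and 2. It cannot tell sex from anything else that differed between those libraries. With the 8 Tail libraries alone, 50 of the 84 were called, and among the named genes Fuz, Cp, Gdf10, Foxd3, Nkx2-2, Matn4, Angpt4, Nkx3-2, Dbx2, Atoh1, Arrb1, Ap2a1 and Bcl2l12, described below, were not (adjusted p 0.0521 to 0.18).

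Of the 22 listed Hedgehog targets, 7 were lower in Fuz KO than in Gpr161 KO, 0 were higher and 15 did not pass. Gli1, the activator whose transcript is the usual readout of the pathway, had 28.3 and 20.0 CPM in Fuz KO against 114 and 130.1 CPM in Gpr161 KO. Its levels in DKO were 40.0 and 35.4 CPM and in WT 38.2 and 45.9 CPM, so all 4 of these libraries lay between the mutants. The difference was log2 -2.34 (SE 0.19, adjusted p = 7.18e-05, edgeR). Ptch1, the receptor that keeps Smoothened off, had 158 and 101 CPM in Fuz KO and 544 and 532 CPM in Gpr161 KO (log2 -2.06, SE 0.27, adjusted p = 0.0042), beside 184 and 136 CPM in DKO and 138 and 153 CPM in WT. For Ptch1 the Fuz KO, DKO and WT libraries overlapped, and Gpr161 KO stood alone above them. Hhip, a surface protein that binds and sequesters the ligands, had 9.18 and 10.2 CPM in Fuz KO and 48.3 and 74.4 CPM in Gpr161 KO (log2 -2.66, SE 0.35, adjusted p = 0.00415). Gli1, Ptch1 and Hhip kept their calls when any single library of the 2 groups was left out, with adjusted p of at most 0.0489.

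Forkhead genes of the mesenchyme were also among the targets. Foxf2 had 4.72 and 3.43 CPM in Fuz KO and 43.9 and 60.5 CPM in Gpr161 KO, beside 9.05 and 9.95 CPM in DKO and 14.6 and 11.3 CPM in WT (log2 -3.68, SE 0.36, adjusted p = 0.000443, edgeR). Both Fuz KO libraries were below every other Tail library for this gene. Foxl1 had 2.09 and 1.63 CPM in Fuz KO and 10.4 and 17.4 CPM in Gpr161 KO (log2 -2.90, SE 0.40, adjusted p = 0.00485), and its adjusted p was 0.0584 without Fuz KO 2 and 0.0636 without Gpr161 KO 2. Nkx2-2, a homeodomain factor of the most ventral neural progenitors, had 0.0516 and 0.0494 CPM in Fuz KO and 6.49 and 4.80 CPM in Gpr161 KO (log2 -6.72, SE 1.24, adjusted p = 0.0471). It lost the call without each of the 4 libraries in turn (adjusted p 0.135 to 0.25) and with sex as a term (0.102), and its WT libraries were at 0.144 and 2.42 CPM. The median of the 22 listed targets was log2 -0.86 beside 0.02 over all genes tested (-0.57 without Gpr161 KO 2). Foxf1, the paralogue of Foxf2 in gut and body wall mesenchyme, was at 25.9 and 11.5 CPM in Fuz KO and 92.1 and 96.9 CPM in Gpr161 KO and did not pass (adjusted p = 0.0988). Foxd1, chosen after its values were seen, was at 34.3 and 26.7 CPM in Fuz KO and 104 and 93.9 CPM in Gpr161 KO (adjusted p = 0.0876).

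**Figure D1:**
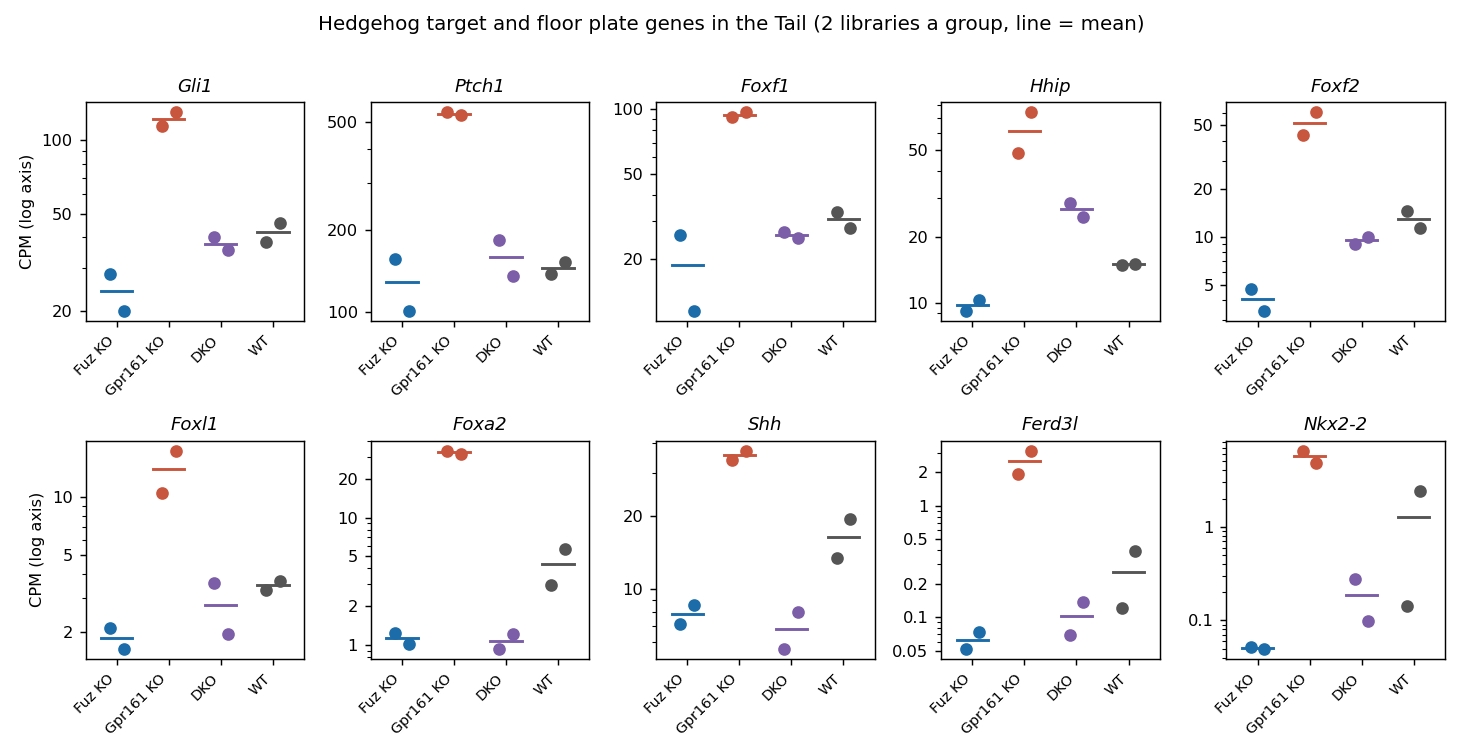
CPM on a log axis of 10 Hedgehog target and floor plate genes in the Tail libraries of Fuz KO, Gpr161 KO, DKO and WT. Each point is a library and each line the mean of 2, and in every panel the Gpr161 KO libraries are the highest, with Fuz KO at 20.0 to 28.3 CPM and Gpr161 KO at 114 to 130.1 CPM for Gli1.

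Of the 28 listed ligands, receptors and transducers, 3 were higher in Fuz KO, 3 were lower and 22 did not pass. Shh, the ligand gene, had 7.14 and 8.59 CPM in Fuz KO and 34.0 and 37.2 CPM in Gpr161 KO, beside 5.63 and 7.99 CPM in DKO and 13.4 and 19.4 CPM in WT (log2 -2.17, SE 0.32, adjusted p = 0.0115, edgeR). It lost the call without each of the 4 libraries in turn, with adjusted p of 0.0609 to 0.101. The co-receptor genes Gas1 and Cdon, whose proteins bind the ligands, were higher in Fuz KO. Gas1 had 206 and 266 CPM in Fuz KO and 119.7 and 112 CPM in Gpr161 KO (log2 1.03, SE 0.16, adjusted p = 0.0143). Cdon had 83.8 and 88.9 CPM in Fuz KO and 44.7 and 31.5 CPM in Gpr161 KO (log2 1.18, SE 0.18, adjusted p = 0.00973). The third co-receptor gene, Boc, was at 39.5 and 42.6 CPM in Fuz KO and 23.7 and 18.6 CPM in Gpr161 KO and did not pass (log2 0.95, SE 0.23, adjusted p = 0.125). For all 3 co-receptor genes the Gpr161 KO libraries were the lowest of the 8 Tail libraries. Gas1 lost its call without Fuz KO 2 (adjusted p = 0.0862), Gpr161 KO 1 (0.132) and Gpr161 KO 2 (0.187), and Cdon without Fuz KO 2 (0.0521) and Gpr161 KO 2 (0.135). With sex as a term the adjusted p was 0.0828 for Gas1 and 0.0302 for Cdon.

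The core transducers showed no call. Gli2, the main activator, had a log2 of 0.08 (SE 0.14, adjusted p = 0.896), and Gli3, the main repressor, one of 0.48 (SE 0.15, adjusted p = 0.301). Smo was at log2 -0.26 (SE 0.13, adjusted p = 0.575) and Sufu, which binds Gli proteins in the cytoplasm, at log2 -0.38 (SE 0.13, adjusted p = 0.338). Arrb1, a beta-arrestin that works at ciliary receptors and was chosen after its values were seen, had 69.6 and 85.8 CPM in Fuz KO and 133 and 121 CPM in Gpr161 KO (log2 -0.71, SE 0.13, adjusted p = 0.0413, edgeR), and stayed called only without Fuz KO 2. Without Fuz KO 1, Gpr161 KO 1 and Gpr161 KO 2 its adjusted p was 0.215, 0.331 and 0.164. The 3 higher genes of the list were Gpr161, Cdon and Gas1, the 3 lower ones Shh, Fuz and Arrb1, and the list median was log2 -0.04. Both deleted genes are in this list: the difference was log2 -2.49 (SE 0.39, adjusted p = 0.0142) for Fuz and log2 2.88 (SE 0.37, adjusted p = 0.00398) for Gpr161. The call of Fuz was lost without Fuz KO 1 (adjusted p = 0.103), Fuz KO 2 (0.0552) and Gpr161 KO 2 (0.135), and that of Gpr161 without Gpr161 KO 1 (0.0602) and Gpr161 KO 2 (0.101). Fuz (0.0682) and Arrb1 (0.113) were also not called with sex as a term.

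Of the 26 listed floor plate and ventral neural tube genes, 4 were lower in Fuz KO (Foxa2, Ferd3l, Shh and Nkx2-2), 0 were higher and 22 did not pass. Foxa2, the forkhead factor that specifies floor plate and notochord, had 1.24 and 1.01 CPM in Fuz KO and 33.6 and 31.6 CPM in Gpr161 KO, beside 0.924 and 1.21 CPM in DKO and 2.97 and 5.67 CPM in WT. Fuz KO and DKO overlapped, and both lay below WT, which lay below Gpr161 KO. The difference was log2 -4.86 (SE 0.42, adjusted p = 0.000128, edgeR) and stayed called without any single library. Ferd3l, a basic helix-loop-helix factor of the floor plate, had 0.0516 and 0.0741 CPM in Fuz KO and 1.94 and 3.12 CPM in Gpr161 KO (log2 -5.26, SE 0.63, adjusted p = 0.00193) and also kept its call in each of these 4 fits. The list median was log2 -0.61 (-1.48 without Fuz KO 2). Other ventral genes with wide gaps did not pass, and they are given after their values were seen. Nkx2-9 was at 0.516 and 0.247 CPM in Fuz KO and 14.4 and 20.4 CPM in Gpr161 KO (adjusted p = 0.0791). Nkx6-1 was at 7.20 and 5.06 CPM in Fuz KO and 55.2 and 68.8 CPM in Gpr161 KO (adjusted p = 0.172), with WT at 4.45 and 19.5 CPM. The axon repellent gene Slit1 was at 17.6 and 12.8 CPM in Fuz KO and 71.5 and 72.9 CPM in Gpr161 KO (adjusted p = 0.0872). In each of these 3 genes the compared libraries did not overlap, as in 39.38% of all genes tested, and the 2 WT libraries of Nkx6-1 differed by more than those of either mutant.

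Of the 31 listed dorsal neural tube and roof plate genes, 4 were higher in Fuz KO, 0 were lower and 27 did not pass. Pax3, a paired-box factor of the dorsal neural tube, neural crest and dermomyotome, had 46.6 and 50.9 CPM in Fuz KO and 7.87 and 8.24 CPM in Gpr161 KO, beside 39.6 and 34.0 CPM in DKO and 55.5 and 54.7 CPM in WT (log2 2.60, SE 0.17, adjusted p = 9.05e-06, edgeR). Pax7, its paralogue, had 3.92 and 7.46 CPM in Fuz KO and 0.0948 and 0.0517 CPM in Gpr161 KO (log2 6.21, SE 0.49, adjusted p = 6.78e-05). Msx3, a homeobox gene of the dorsal neural tube, had 6.78 and 12.2 CPM in Fuz KO and 0.190 and 0.620 CPM in Gpr161 KO (log2 4.56, SE 0.46, adjusted p = 0.000443). These 3 genes kept their calls without any single library, and in each the DKO and WT libraries lay far above Gpr161 KO. Atoh1, the factor of the dorsalmost interneuron progenitors, had 0 counts in both Gpr161 KO libraries and 0.464 and 1.38 CPM in Fuz KO. It was at least 25.18-fold higher in Fuz KO at a floor of 3 counts over the group, which covers counting error only (adjusted p = 0.0142). Its adjusted p was 0.0521 without Fuz KO 2, 0.144 without Gpr161 KO 1 and 0.135 without Gpr161 KO 2. Of the 31 genes, 30 had a positive log2. The list median was log2 1.34, and 1.22 with the 4 genes at 0 in 1 group placed at their bound. It was 1.74 without Fuz KO 1 and 0.80 without Fuz KO 2. In Fuz KO the list lay at a median log2 of -1.03 and -0.19 from the WT mean in libraries 1 and 2, and in Gpr161 KO at -1.88 and -1.89.

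Of the 16 listed genes of intermediate neural tube levels, 3 were higher in Fuz KO, 0 were lower and 13 did not pass. Pax6 had 36.3 and 37.9 CPM in Fuz KO and 3.65 and 4.86 CPM in Gpr161 KO, with 46.5 and 32.9 CPM in DKO and 18.1 and 43.9 CPM in WT (log2 3.12, SE 0.40, adjusted p = 0.0047, edgeR). Its call was lost without Gpr161 KO 1 (adjusted p = 0.103) and without Gpr161 KO 2 (0.0636). Dbx2, a homeodomain factor of the middle of the neural tube, had 143 counts in Fuz KO and 2 in Gpr161 KO, a ratio of 73.0 with a 95% counting interval of 19.84 to 608.6 (adjusted p = 0.0164). Its adjusted p was 0.0596 without Fuz KO 2, 0.207 without Gpr161 KO 1 and 0.101 without Gpr161 KO 2. Irx5, an Iroquois homeobox gene, had 32.1 and 24.5 CPM in Fuz KO and 8.67 and 9.32 CPM in Gpr161 KO (log2 1.65, SE 0.28, adjusted p = 0.0223), and stayed called only without Fuz KO 2 (adjusted p 0.105 without Fuz KO 1, 0.262 without Gpr161 KO 1 and 0.205 without Gpr161 KO 2). Dbx2 (0.0962) and Irx5 (0.119) were not called with sex as a term. The list median was log2 1.66, the same with the 2 genes at 0 in 1 group placed at their bound. In the other direction and not called, Evx1, of V0 interneurons and the tail bud, was at 18.6 and 6.22 CPM in Fuz KO and 32.5 and 23.2 CPM in Gpr161 KO (adjusted p = 0.384).

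**Figure D2:**
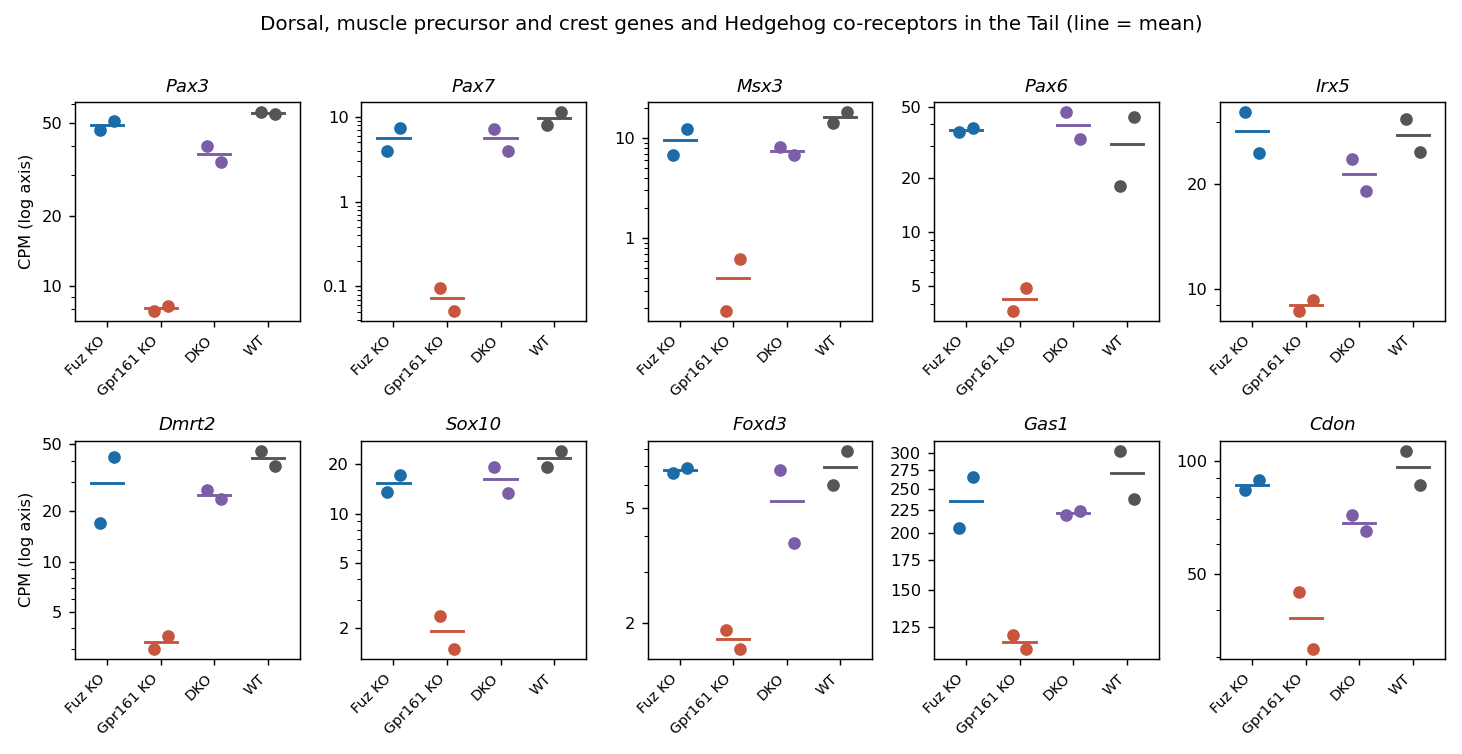
CPM on a log axis of 10 genes higher in Fuz KO in the Tail libraries of Fuz KO, Gpr161 KO, DKO and WT. Each point is a library and each line the mean of 2, and in every panel both Gpr161 KO libraries lie below all others, with Pax3 at 46.6 to 50.9 CPM in Fuz KO and 7.87 to 8.24 CPM in Gpr161 KO.

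Of the 22 listed sclerotome and cartilage genes, 4 were lower in Fuz KO, 0 were higher and 18 did not pass. Nkx3-2, a homeobox gene of the sclerotome, had 0.877 and 1.85 CPM in Fuz KO and 6.35 and 8.52 CPM in Gpr161 KO, beside 2.45 and 2.62 CPM in DKO and 3.45 and 4.53 CPM in WT. Both DKO and WT lay between the single mutants, and the difference was log2 -2.44 (SE 0.47, adjusted p = 0.0482, edgeR). The cartilage matrix genes Matn4, a matrilin (log2 -3.41, SE 0.55, adjusted p = 0.0164), and Col9a1, a collagen chain (log2 -1.15, SE 0.20, adjusted p = 0.0223), were also lower. Nkx3-2 and Col9a1 were not called in any fit without 1 library (adjusted p 0.0628 to 0.292 and 0.0761 to 0.195), and Matn4 was called only without Fuz KO 1 (its adjusted p was 0.119 without Fuz KO 2, 0.135 without Gpr161 KO 1 and 0.1 without Gpr161 KO 2). Nkx3-2 (0.113) and Col9a1 (0.0983) were also not called with sex as a term. The list median was log2 -0.62. Pax1, the classic sclerotome gene, was chosen after its values were seen: it was at 2.89 and 17.6 CPM in Fuz KO and 31.2 and 54.3 CPM in Gpr161 KO and did not pass (adjusted p = 0.428).

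Of the 26 listed extracellular matrix genes of wider expression, 3 were lower in Fuz KO, 0 were higher and 23 did not pass. The proteoglycan gene Vcan had 273 and 357 CPM in Fuz KO and 700.1 and 760.0 CPM in Gpr161 KO (log2 -1.21, SE 0.23, adjusted p = 0.0425, edgeR). Fbn2, a fibrillin, differed by log2 -0.77 (SE 0.11, adjusted p = 0.00949), and Col11a1, a fibrillar collagen, by log2 -0.85 (SE 0.16, adjusted p = 0.0384). The list median was log2 -0.46 (-0.84 without Fuz KO 2 and -0.19 without Gpr161 KO 1). Vcan lost its call without each of the 4 libraries (adjusted p 0.0782 to 0.257). Fbn2 lost it without Fuz KO 1 (0.0699) and Gpr161 KO 2 (0.135), and Col11a1 without Fuz KO 1 (0.213), Gpr161 KO 1 (0.246) and Gpr161 KO 2 (0.218). With sex as a term Vcan (0.135) and Col11a1 (0.142) were not called.

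Of the 24 listed dermomyotome and muscle genes, 3 were higher in Fuz KO, 0 were lower and 21 did not pass. Dmrt2, a dermomyotome factor that acts upstream of Myf5, had 17.0 and 41.9 CPM in Fuz KO and 3.01 and 3.62 CPM in Gpr161 KO, beside 26.7 and 23.5 CPM in DKO and 45.9 and 37.4 CPM in WT (log2 3.15, SE 0.42, adjusted p = 0.0042, edgeR). Its call was lost without Gpr161 KO 1 (adjusted p = 0.108) and Gpr161 KO 2 (0.0856). The other 2 were Pax3 and Pax7, and 23 of the 24 genes had a positive log2. The list median was log2 1.75. It was 2.62 without Fuz KO 1, 0.19 without Fuz KO 2, 1.89 without Gpr161 KO 1 and 2.19 without Gpr161 KO 2. Myog, a myogenic factor chosen after its values were seen, was at 0.413 and 24.8 CPM in Fuz KO and 0.806 and 0.878 CPM in Gpr161 KO (adjusted p = 0.434), beside 18.4 and 34.5 CPM in WT. For Myog, Fuz KO 1 lay below both Gpr161 KO libraries and Fuz KO 2 lay in the WT range. From the WT mean, the list lay at a median log2 of -2.18 and -0.18 in Fuz KO 1 and 2, and at -2.94 and -2.80 in Gpr161 KO. The part of the hypoxia gene levels of Fuz KO 1 in this difference was not tested.

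Of the 19 listed crest, glia and pigment genes, 3 were higher in Fuz KO, 0 were lower and 16 did not pass. Sox10, a factor of migrating crest and glia, had 13.6 and 17.1 CPM in Fuz KO and 2.37 and 1.50 CPM in Gpr161 KO, with 19.3 and 13.4 CPM in DKO and 19.4 and 24.2 CPM in WT (log2 2.98, SE 0.33, adjusted p = 0.00109, edgeR). It kept its call without any single library. Foxd3, a forkhead factor of early crest, had 6.63 and 6.91 CPM in Fuz KO and 1.90 and 1.63 CPM in Gpr161 KO (log2 1.94, SE 0.33, adjusted p = 0.0223). Foxd3 was called in none of the fits without 1 library, with adjusted p of 0.0536 to 0.259, and not with sex as a term (0.0729). Of the 19 genes, 14 had a positive log2, and the median was log2 0.90 (0.50 without Fuz KO 2).

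**Figure D3:**
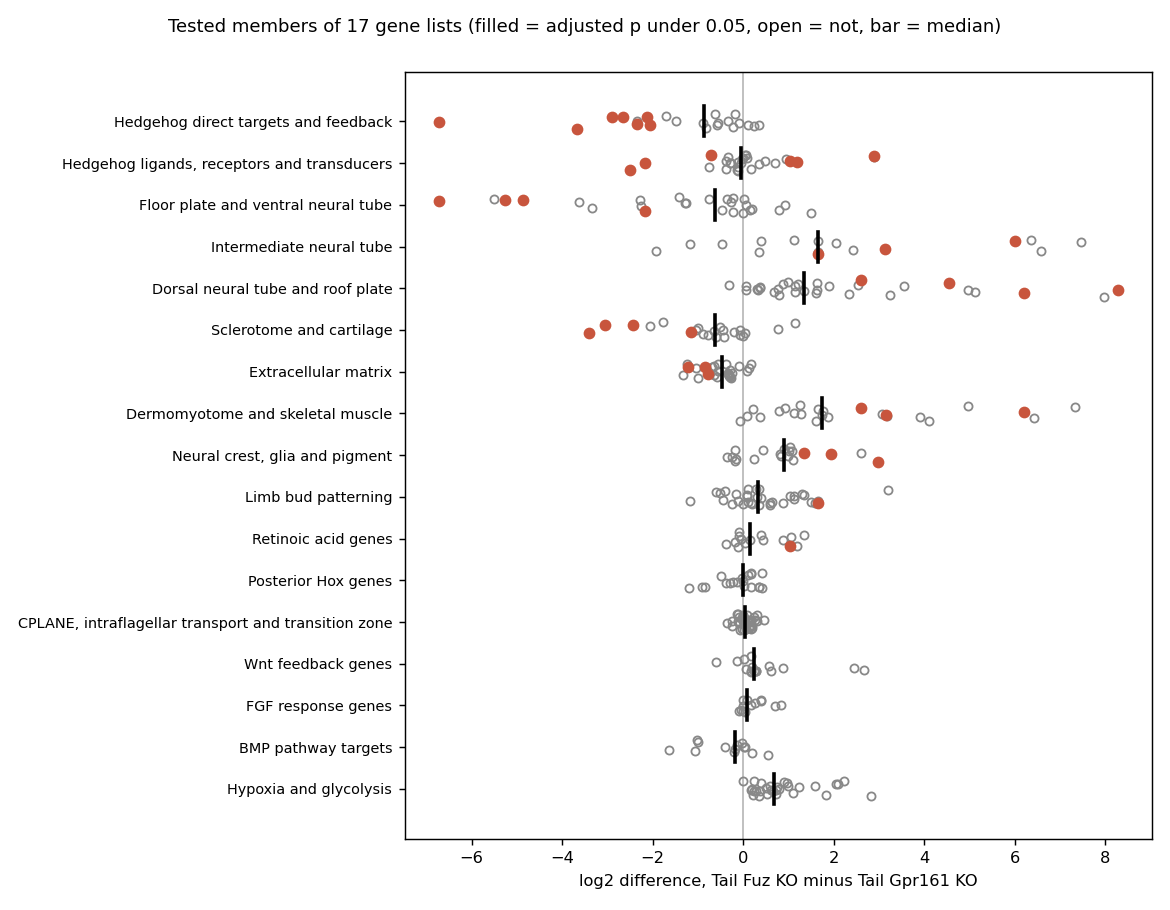
Log2 difference, Tail Fuz KO minus Tail Gpr161 KO, of every tested member of 17 gene lists, with filled points for an adjusted p under 0.05, open points for the rest and a bar at the list median. The bars of Hedgehog targets (-0.86), floor plate (-0.61) and sclerotome (-0.62) lie left of 0, and those of intermediate (1.66), dorsal (1.34) and dermomyotome genes (1.75) right of it.

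Of the 32 lists, 11 had a called member and 21 had none. In the limb bud list 1 of 34 genes was higher, Irx5, which is also on the intermediate neural tube list, and the median was log2 0.32 (0.11 without Fuz KO 1). In the retinoic acid list 1 of 15 was higher: Crabp1, a retinoic acid binding protein, had 243 and 283 CPM in Fuz KO and 114 and 144 CPM in Gpr161 KO (log2 1.03, SE 0.20, adjusted p = 0.0431, edgeR), and was not called without any 1 of the 4 libraries (adjusted p 0.0536 to 0.415). With sex as a term the adjusted p was 0.0828 for Crabp1 and 0.119 for Irx5. The 36 listed CPLANE, intraflagellar transport and transition zone genes, which build and gate the cilium, had 0 calls and log2 differences of -0.35 to 0.46 around a median of 0.03 (-0.03 without Fuz KO 1 and 0.12 without Fuz KO 2). Of these 36 genes, 0 had an unadjusted p under 0.05 by edgeR, against 1980 of all 21284 genes tested. The 19 posterior Hox genes had a median of log2 -0.00077 (-0.10 without Fuz KO 1), and Hoxa13, the widest of them, was at 8.87 and 10.9 CPM in Fuz KO and 18.2 and 26.8 CPM in Gpr161 KO (adjusted p = 0.234). The medians were log2 0.23 for 17 Wnt feedback genes, 0.08 for 13 FGF response genes, -0.19 for 13 BMP targets and -0.22 for 18 core planar cell polarity genes. Without Fuz KO 1 the BMP median was -0.41 and the FGF median -0.0007, and without Fuz KO 2 the medians were -0.08 for BMP, 0.21 for FGF and -0.44 for planar cell polarity. The FGF median was also 0.15 without Gpr161 KO 1 and 0.0004 without Gpr161 KO 2. The widest of the Wnt, FGF and planar cell polarity genes were Dkk4, listed at 0 and 0.346 CPM in Fuz KO and 0 and 0.0517 CPM in Gpr161 KO, Spry1 at log2 0.83 (adjusted p = 0.252) and Fat4 at -1.76 (adjusted p = 0.205). DESeq2 called 345 of 19310 genes (1.79%), among them 0 members of the ciliary and BMP lists, 1 of the FGF list and 2 of the planar cell polarity and posterior Hox lists each.

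The lists for other cell types and for cell state also had no called member. The hypoxia and glycolysis list had a median of log2 0.69 and 29 of its 30 genes were positive, but the median was -0.67 without Fuz KO 1, 1.31 without Fuz KO 2 and 0.35 without Gpr161 KO 2. The neuronal list lay at a median log2 of -2.16 and -0.14 from the WT mean in Fuz KO and at -1.01 and -0.50 in Gpr161 KO, while its 2 WT libraries lay at -1.08 and 1.08. The 12 macrophage markers summed to 6.71 and 38.7 CPM in Fuz KO and 6.66 and 24.7 CPM in Gpr161 KO, with 0 of them at 0 counts in each of these libraries. The 20 cardiomyocyte markers summed to 17.7 and 52.5 CPM in Fuz KO and 46.6 and 30.3 CPM in Gpr161 KO, with 6, 1, 3 and 5 of them at 0 in these libraries. Nr5a1, of the adrenal and gonadal primordium, was the widest gene of the kidney list at 0.309 and 5.68 CPM in Fuz KO and 0.0474 and 0.310 CPM in Gpr161 KO (adjusted p = 0.283). Erythroid, endothelial, surface ectoderm, p53 target, gut, kidney, tail bud and neural progenitor lists had medians of log2 -0.21 to 0.40. When 1 of the 4 libraries was left out, the list medians changed sign for neuronal (-1.48 without Fuz KO 2), macrophage (-1.77 without Fuz KO 2), cardiomyocyte (-0.36 without Fuz KO 2), tail bud (0.29 without Gpr161 KO 1), erythroid, endothelial, neural progenitor and surface ectoderm genes. Without Fuz KO 1 the median was -1.04 for tail bud (-0.20 with all libraries), -0.82 for gut (-0.21) and 0.02 for p53 target genes (0.20). For kidney genes (0.40) it was 0.79 without Fuz KO 2, 0.68 without Gpr161 KO 1 and 0.22 without Gpr161 KO 2. Head markers summed to 32.1 and 62.2 CPM in Fuz KO and 13.4 and 19.0 CPM in Gpr161 KO, and 168 to 367 CPM in the Head libraries. In Tail WT they summed to 68.55 and 57.11 CPM. The median of this list was log2 1.08 (1.53 without Fuz KO 1 and 0.28 without Fuz KO 2).

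**Figure D4:**
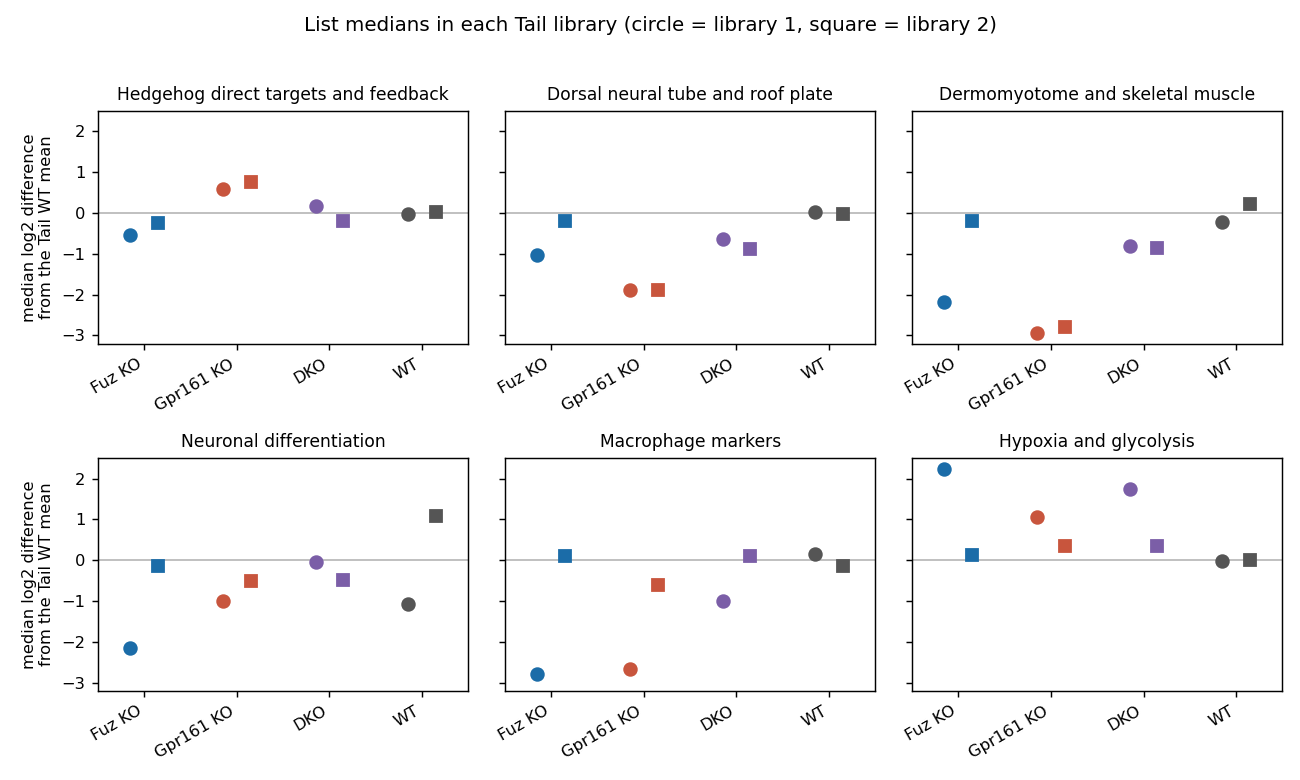
Median log2 difference from the Tail WT mean of 6 gene lists in each Tail library of Fuz KO, Gpr161 KO, DKO and WT, with a circle for library 1 and a square for library 2. For Hedgehog targets both Fuz KO libraries (-0.53 and -0.23) lie below both Gpr161 KO libraries (0.58 and 0.76), whereas for hypoxia genes Fuz KO 1 stands at 2.24 and Fuz KO 2 at 0.13.

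Of the 84 called genes, 50 were on no list, and those named here include an enzyme and several secreted proteins. Hsd11b2, the enzyme that inactivates glucocorticoids, had 17.6 and 22.0 CPM in Fuz KO and 113 and 109 CPM in Gpr161 KO, beside 39.2 and 40.9 CPM in DKO and 43.6 and 50.1 CPM in WT (log2 -2.49, SE 0.24, adjusted p = 0.000382, edgeR). DKO and WT lay between the single mutants, as they did for Gli1. Cxcl12, a chemokine chosen after its values were seen, had 123 and 148 CPM in Fuz KO and 341 and 353 CPM in Gpr161 KO (log2 -1.36, SE 0.17, adjusted p = 0.00249). Hsd11b2 and Cxcl12 kept their calls without any single library. Angpt4, a vascular growth factor gene (log2 -2.46, SE 0.47, adjusted p = 0.0425), was lower, and Gdf10, of the BMP family (log2 1.99, SE 0.39, adjusted p = 0.0484), and Cp, the copper carrier ceruloplasmin (log2 2.34, SE 0.45, adjusted p = 0.0433), were higher. Angpt4 lost its call without each library (adjusted p 0.135 to 0.281), while Gdf10 and Cp were called only without Fuz KO 1, with adjusted p of 0.159 to 0.413 and 0.165 to 0.374 in the other 3 fits. With sex as a term the adjusted p was 0.104 for Angpt4, 0.0729 for Gdf10 and 0.15 for Cp.

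Some called genes lie near Fuz on chromosome 7. Of the 100 tested genes on each side of Fuz, 5 were called (2.5%), against 4 of the 1441 other genes of that chromosome (0.2776%). Around Gpr161 on chromosome 1 the counts were 0 of 200 and 3 of 1175 (0.2553%). The 5 genes were Ap2a1, Bcl2l12, Sec1, Car11 and Saa2, of which the first 3 were chosen after their values were seen. Saa2, an acute phase protein, had 0.155 and 0.395 CPM in Fuz KO and 6.78 and 9.43 CPM in Gpr161 KO (log2 -4.86, SE 0.66, adjusted p = 0.00463, edgeR), and Car11, a carbonic anhydrase relative, had 15.7 and 10.1 CPM in Fuz KO and 2.25 and 1.86 CPM in Gpr161 KO (log2 2.65, SE 0.33, adjusted p = 0.00252). Without Gpr161 KO 2 the adjusted p was 0.0516 for Saa2, 0.0748 for Car11 and 0.0516 for Sec1. Ap2a1 and Bcl2l12 were not called without any 1 of the 4 libraries (adjusted p 0.137 to 0.298 and 0.0584 to 0.227) or with sex as a term (0.119 and 0.113). Sec1 had 340 counts in Fuz KO and 2 in Gpr161 KO, a ratio of 173.6 (95% counting interval 47.68 to 1439), and its DKO and WT libraries were in the Fuz KO range. Bcl2l12 had 7.69 and 9.29 CPM in Fuz KO and 15.6 and 16.1 CPM in Gpr161 KO, with DKO at the Fuz KO level (8.57 and 8.42 CPM) and WT at the Gpr161 KO level (15.3 and 16.3 CPM). Position near a deleted gene and Hedgehog output cannot be told apart for these genes in this comparison.

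The gene with the smallest adjusted p was a processed pseudogene, Rpl34-ps1, and 3 processed pseudogenes were singled out after their values were seen. Rpl34-ps1 had 33.6 and 39.5 CPM in Fuz KO and 1.61 and 1.19 CPM in Gpr161 KO, with 2.17 and 2.74 CPM in DKO and 43.7 and 37.5 CPM in WT (log2 4.70, SE 0.27, adjusted p = 4.21e-06, edgeR). It was thus low in every Tail library without Gpr161. Gm11942 had 7.33 and 14.7 CPM in Fuz KO and 0.379 and 0.310 CPM in Gpr161 KO, with 12.3 and 11.5 CPM in DKO and 0.526 and 0.457 CPM in WT, and was high in every Tail library without Fuz. Gm6969 had 13.3 and 17.5 CPM in Fuz KO and at most 0.600 CPM in Gpr161 KO, DKO and WT. Reads of pseudogenes can be shared with their parent genes, so these 3 levels are uncertain.

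Set against WT with the same Tail WT libraries, the mutants gave unequal counts of calls. Fuz KO against WT had 2 calls among 21284 genes (0.0094%), Gm11942 and Gm6969, and Gpr161 KO against WT had 65 (0.305%), of which 17 were higher (0.0799%) and 48 lower (0.226%). By DESeq2 the counts were 24 and 320, and at an unadjusted p under 0.05 edgeR gave 1109 and 1486 genes. Fuz itself, the deleted gene, was at log2 -2.30 from WT in Fuz KO and did not pass (adjusted p = 0.241, edgeR). A low count of calls therefore does not show that few genes changed. Both Fuz KO libraries were male and both WT libraries female, so genotype and sex cannot be told apart in Fuz KO against WT. Gli1 was at log2 -0.80 from WT in Fuz KO (adjusted p = 0.763) and 1.54 in Gpr161 KO (adjusted p = 0.00325). Foxa2 was at log2 -1.94 in Fuz KO (adjusted p = 0.557) and 2.92 in Gpr161 KO (adjusted p = 0.00511). Pax3 was at log2 -0.18 in Fuz KO (adjusted p = 0.826) and -2.77 in Gpr161 KO (adjusted p = 4.32e-06), and Sox10 at -0.51 (adjusted p = 0.816) and -3.49 (adjusted p = 0.000433). Gas1 was at log2 -0.20 in Fuz KO (adjusted p = 0.821) and -1.23 in Gpr161 KO (adjusted p = 0.00653). For Gli1 and Foxa2 the 2 mutants lay on opposite sides of WT, and for Pax3, Sox10 and Gas1 both lay below it in the fitted log2. Leaving out 1 library changed the Gpr161 KO count to 13 without Gpr161 KO 1, 10 without Gpr161 KO 2, 36 without WT 1 and 25 without WT 2. It changed the Fuz KO count to 4 without Fuz KO 2, 1 without WT 1 and 0 without WT 2. Both comparisons share libraries with each other and with the main one, so they are not independent of it.

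The same pair of mutants in the Head was used to ask which differences depended on region. The Tail difference minus the Head difference was called for 43 genes (0.202%), of which 35 were positive (0.164%) and 8 negative (0.0376%), and 6 of the 84 genes above were among them. Gli1 was alike in both regions, at log2 -2.34 in the Tail and -2.67 in the Head (difference 0.34, SE 0.26, adjusted p = 0.934). For Shh the Tail difference was the smaller: log2 -2.17, against -4.77 in the Head, where Fuz KO had 2.86 and 6.59 CPM and Gpr161 KO 109.5 and 149 CPM (difference 2.60, SE 0.45, adjusted p = 0.0429). Dmrt2 was higher in Fuz KO in the Tail and lower in the Head, where Fuz KO had 0.779 and 0.856 CPM and Gpr161 KO 2.69 and 3.75 CPM (difference 5.12, SE 0.60, adjusted p = 0.00634). Sox10 differed more in the Tail, with Head levels of 35.7 and 21.9 CPM in Fuz KO and 25.9 and 30.4 CPM in Gpr161 KO (difference 2.95, SE 0.44, adjusted p = 0.0192). The ectoderm and neural genes Sp8 and Wnt3 differed by log2 0.34 and 0.32 in the Tail and by 3.10 and 2.86 in the Head. Trh, the thyrotropin-releasing hormone gene, was lower in Fuz KO in the Tail, at 0.464 and 0.519 CPM against 5.12 and 2.69 CPM in Gpr161 KO, and higher in Fuz KO in the Head, at 41.1 and 10.9 CPM against 2.91 and 2.91 CPM in Gpr161 KO (difference -6.14, adjusted p = 0.00634). The Tail difference of Trh itself was not called without any 1 library (adjusted p 0.0587 to 0.25) or with sex as a term (0.0582). The widest positive difference of a named gene was that of Myh6, the cardiac myosin heavy chain, which had 0.831 and 0.499 CPM in Head Fuz KO and 326 and 55.9 CPM in Head Gpr161 KO, and at most 0.691 CPM in the 4 compared Tail libraries. The count of 43 fell to 4 without Tail Gpr161 KO 2, 5 without Tail Gpr161 KO 1, 8 without Head Gpr161 KO 1, 16 without Tail Fuz KO 2 and 24 without Head Fuz KO 1, and was 91 without Tail Fuz KO 1 and 102 without Head Fuz KO 2. Sp8 was called in all 8 of these fits without 1 library, Trh in all but that without Head Gpr161 KO 1 (adjusted p = 0.0534) and Dmrt2 in all but those without Tail Gpr161 KO 1 (0.074) and Tail Gpr161 KO 2 (0.0697). Shh was not called in 5 of the 8 fits, Sox10 in 4, Myh6 in 6 and Wnt3 in 7. A fit added after the data were seen assumed that Head and Tail libraries of the same genotype and number pair. It used these pairs as a replicate block and called 384 genes, among them 39 of the 43. Shh, Dmrt2, Trh, Sp8, Wnt3 and Myh6 were called in it (adjusted p 0.000115 to 0.0373, edgeR), while Sox10 was not (0.1).

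**Figure D5:**
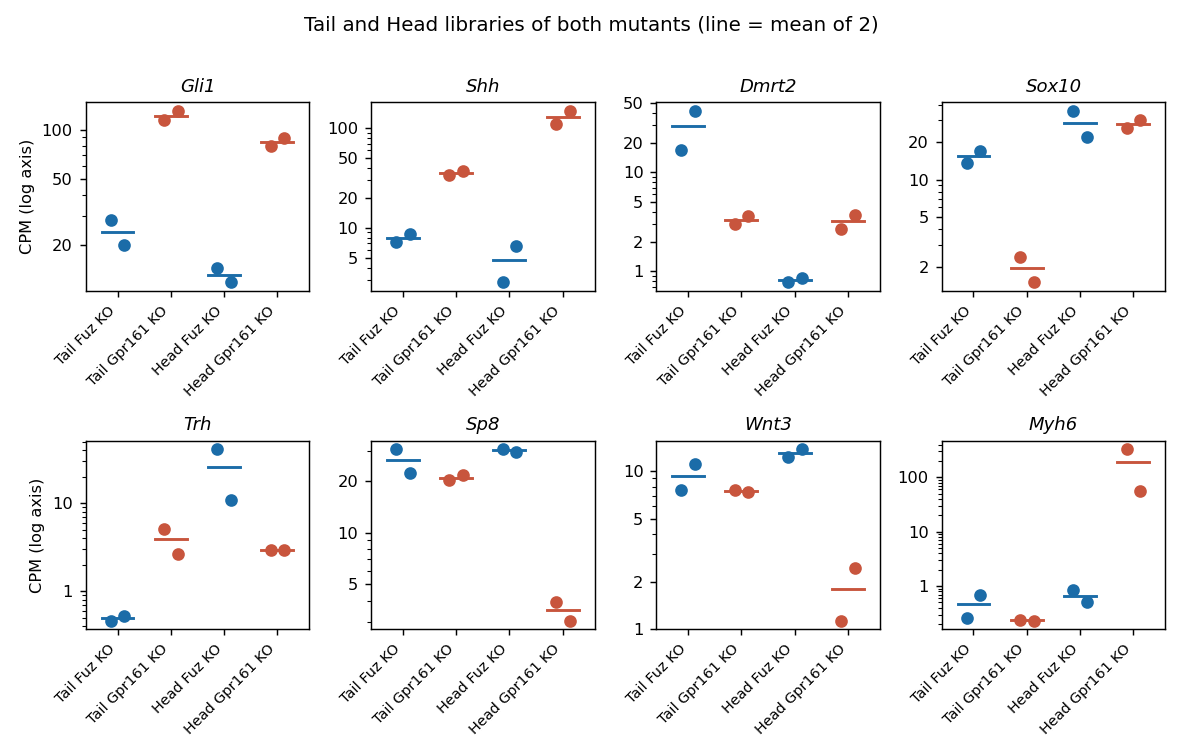
CPM on a log axis of 8 genes in the Tail and Head libraries of Fuz KO and Gpr161 KO, with a point for each library and a line at the mean of 2. Gli1 is lower in Fuz KO in both regions, Dmrt2 lies on opposite sides in the 2 regions, and Sox10 separates the mutants in the Tail (13.6 and 17.1 CPM against 2.37 and 1.50 CPM) while its Head libraries overlap.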

How the data were processed

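Poly-A RNA libraries of 16 embryo samples were sequenced, per the labels' protocols, and the build was GRCm39, per the submitters' processing notes, which list STAR 2.7.1a and the counters featureCounts 1.6.0 and HTSeq among other tools. The deposited files hold raw read counts per gene for each sample. Which tool counted, with which strand setting, is not given in the sources used here, so reads of overlapping or antisense genes and of near-identical copies may be shared. Names were found for 54809 of the 54838 gene identifiers.

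The 16 libraries were fitted together, 1 coefficient for each group, by robust quasi-likelihood (edgeR 4.0.16, R 4.3.3, TMM scaling, filterByExpr, 2-sided test). The fit kept 21284 genes and had 8 residual degrees of freedom. P-values were adjusted by Benjamini-Hochberg over all genes, and an adjusted p under 0.05 was called. The SE is the log2 difference over the square root of F. Where a library was left out, the remaining library of that group is taken to vary as the other groups do. The fit was tested on simulated data with the same mean per gene in all groups, apart from set changes in Tail Fuz KO. No single library was shifted in these data, so that test does not bear on calls that depend on single libraries. Sex was read from Xist and Y-linked counts. Both sexes occurred only in the Gpr161 KO groups, so the sex term was set by their libraries alone.

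The members and the 32 gene lists (587 symbols, 1 not found) were chosen with earlier results of these data known. All list genes found were tested. Genes named were 15 fixed Hedgehog and deleted genes, the 12 largest called protein-coding differences in each direction with at least 5 CPM, up to 5 called members of each list or its widest member, and the 5 largest Tail minus Head differences in each direction. Alternatives were RLE scaling, 2 other filters, DESeq2 1.42.0, fewer libraries, sex, the replicate number and removal of haemoglobin and mitochondrial genes. Number 1 minus number 2 differences correlated across genes between Head and Tail at r = 0.437 in Fuz KO, 0.196 in Gpr161 KO, 0.282 in DKO and 0.133 in WT, and the sex read was the same in Head and Tail for each genotype and number. In Fuz KO, DKO and WT both libraries were of the same sex, so sex could tell the numbers apart only in Gpr161 KO. Between unlike genotypes r reached 0.3025, for Head DKO and Head Fuz KO, above the values of Gpr161 KO, DKO and WT. Pairing of Head with Tail by number is not in the labels and is an assumption that these values do not establish. The fit above treats the libraries of such pairs as independent. A fit with the 8 pairs as blocks (4 residual degrees of freedom) was added for Tail minus Head, and the Tail libraries alone hold 1 library of each pair. Across genotypes the numbers were not shown to pair samples. The 95% counting intervals and floors of 3 counts cover counting error only. Library totals ran from 39062489 to 53680317 counts. Some items are not reported here.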

Additional observations from a re-analysis of the deposited data

Results flagged for a closer look

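In 11 named genes the log2 difference between Fuz KO and Gpr161 KO was not the same in Tail and Head, by edgeR's test of the difference of the 2 contrasts. Positive values mean that Fuz KO lay higher, relative to Gpr161 KO, in the Tail than in the Head. The values were 2.60 for Shh, 5.12 for Dmrt2 and 2.95 for Sox10, which were also called within the Tail. Among the named genes not called within the Tail, muscle genes had positive values, at 9.18 for Myh6, 7.18 for the titin-associated Trim55, 7.10 for the kinase gene Alpk2, 7.05 for the atrial light chain gene Myl7 and 6.62 for Asb2. Their Tail differences were log2 1.01, -0.47, 1.63, 0.09 and 2.21, and their Head differences were -8.17, -7.65, -5.47, -6.95 and -4.40, in the same order. On the negative side were Trh at -6.14, which was also called within the Tail, the transcription factor gene Sp8 at -2.76 and the ligand gene Wnt3 at -2.54. These calls rest on few libraries: of the 8 fits without 1 library, the call was lost in 6 for Myh6, 5 for Trim55, 6 for Alpk2, 7 for Myl7, 5 for Asb2 and 7 for Wnt3, with highest adjusted p of 0.385, 0.189, 0.238, 0.227, 0.163 and 0.17. It was lost in 5 for Shh, 4 for Sox10, 2 for Dmrt2, 1 for Trh and 0 for Sp8. With Head and Tail libraries of the same number as a block, Sox10 alone of the 11 was not called (adjusted p = 0.1). The muscle genes were high in the Head Gpr161 KO libraries, where Myl7 had 187 and 41.3 CPM, against 1.43 and 0.428 CPM in Head Fuz KO. The share of heart tissue in those Head samples was not tested.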

How the results depend on the processing

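No called value turned its direction. The count of 84 genes in Tail Fuz KO against Tail Gpr161 KO was 345 by DESeq2, 684 with no low-count filter, 44 with sex as a term and 7 with the 4 compared libraries alone, and 23 to 100 with 1 library left out. It was 247 with Fuz KO 1 and DKO 1 of both regions left out, a choice made after the data were seen, and 62 of the 84 were among these. For Fuz KO against WT (2 genes) the counts were 24 by DESeq2, 519 with no filter, 0 with sex as a term, 6 without Fuz KO 1 and DKO 1, and 0 to 4 with 1 library left out. For Gpr161 KO against WT (65 genes) they were 320, 802, 29, 321 and 10 to 36, and 33 with the Tail libraries alone. For Tail minus Head (43 genes) they were 258 by DESeq2, 541 with no filter, 384 with a replicate block of Head and Tail pairs, added after the data were seen, and 4 to 102 with 1 library left out. With the replicate number as a block the counts were 127, 4 and 122 in the first 3 comparisons, and 83 of the 84 genes stayed called. Number 1 minus number 2 differences correlated at r = 0.1604 across genes between Tail Fuz KO and Tail Gpr161 KO, so pairing across genotypes is not established. RLE scaling (81 genes), a stricter low-count filter of 5 CPM (65), the Tail libraries alone (57) and removal of haemoglobin and mitochondrial genes (78) stayed within 1.5 times of 84. The cause of these changes was not tested. Genes with under 1 CPM, such as Nkx2-2 and Ferd3l in Fuz KO, rest on few reads.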
